A study of Mus musculus with 52 samples.

Results

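Small RNA sequencing of mouse gonadal white fat gave values for 4 microRNA (miRNA) precursors that were at or near 0 in most libraries and high in a few. They are MI0000245, which is mir-202, and MI0005470, MI0005501 and MI0023705, known here by their miRBase accessions alone. They were picked by accession for that pattern, out of 1187 precursors in the table, so their spread over the libraries is given as a description and not as a test. In all, 17 of the 1187 precursors had a median under 1 CPM (counts scaled to the library's size, itself adjusted by TMM) and reached at least 100 CPM in some library, and the 4 precursors were among these 17. The label under which they were grouped, gonad-associated, matches general knowledge of mir-202 and could not be checked for the other 3, whose accessions were paired with no name in the sources used here.

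The mice were 6 months old, of the C57BL/6 strain, and modelled Huntington's disease, in which an expanded CAG repeat lengthens the huntingtin protein. Heterozygous knock-in mice carried 1 knock-in huntingtin allele, called Q20, Q80, Q92, Q111, Q140 and Q175 after the length of its repeat, and wild-type (WT) littermates carried none. The fat came from the depot around the gonad, in 27 males and 25 females, with 4 libraries for each genotype and sex. The exceptions, with 3 libraries, were the Q92 males and the females of WT, Q111 and Q140. WT and Q20 mice were housed together and every other genotype with its own kind, so genotype and housing cannot be told apart between a longer allele and Q20, or between Q175 and WT. The labels do not state that replicates are separate animals, so the p-values may measure only the spread between libraries.

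A miRNA is cut from a hairpin precursor and guides silencing proteins to messenger RNAs, mainly by pairing through its seed, bases 2 to 8 from the 5′ end. In mammals mir-202 is known for its abundance in the gonads, in the supporting cells of the testis as well as in the ovary, and is otherwise little expressed. Its 3′ arm belongs by its seed to the let-7 family, a large group of miRNAs that hold back growth-promoting genes in many differentiated tissues.

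The sequences of mir-202 are printed because they carry its relation to let-7, which is abundant in most tissues. They come from RefSeq on the GRCm38.p6 build, read 5′ to 3′, with the seed in capitals.
mmu-miR-202-5p: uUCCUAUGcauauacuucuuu
mmu-miR-202-3p: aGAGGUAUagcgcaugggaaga
mmu-let-7j: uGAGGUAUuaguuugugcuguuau
mmu-let-7a-5p: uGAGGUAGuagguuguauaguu
The miR-202-3p seed was identical to that of let-7j in 7 of 7 bases and to that of let-7a-5p in 6 of 7. Among 1679 mature mouse names in the RefSeq table, 13 held bases 2 to 7 of miR-202-3p, itself included, and 11 of these were let-7 or miR-98 names. The whole seed, bases 2 to 8, was held by 2 names, miR-202-3p and let-7j. The seed of miR-202-5p was held by no other mature name in that table.

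The hairpin is shown whole, with both mature arms in capitals, because the deposited values are counts per precursor and do not part the arms.
Mir202 hairpin: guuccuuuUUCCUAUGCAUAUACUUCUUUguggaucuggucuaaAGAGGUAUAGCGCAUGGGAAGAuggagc
It lies on the minus strand at chr7:139957689-139957760, inside exon 2 of the long noncoding RNA gene Gm2044 on the same strand. On the other strand it lies within the gene Gm16201, outside that gene's exons. The authors' length for MI0000245, recovered from the ratio of both deposited tables, was 72 nucleotides, the same as this hairpin. The other precursors came out at 77 nucleotides for MI0005470, 81 for MI0005501 and 54 for MI0023705. These lengths name nothing, since 13, 18 and 6 of 1005 RefSeq hairpins had those lengths. No sequence is printed for these 3.

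Library totals ran from 1812067 to 5487948 estimated counts, so that 1 count was worth 0.167 to 0.547 CPM and 3 counts 0.500 to 1.64 CPM. Values below that level differ by a read or a few. WT and Q175 libraries were numbered in 1 series (15 libraries) and the other genotypes in another (37 libraries), so a difference between these series cannot be told apart from genotype. The column headers carried L5 in the first series and L1 or L3 in the second, read here as lane 5 and as lanes 1 and 3. Of the Q140 libraries, 2 stood apart from the others of their labelled sex for MI0000553 and MI0001151, a pair of precursors chosen after their values were seen. The library labelled Q140 female replicate 2 held 17.2 and 25.7 CPM of these, against 453 to 1194 and 492 to 963 in the other 24 females. The library labelled Q140 male replicate 4 held 710.0 and 644 CPM, against 4.81 to 601 (median 52.1) and 12.1 to 1812 (median 73.4) in the other 26 males, so that its second value lay within their range. Several, but not all, of the results that include these libraries are given with and without them.

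The 4 precursors were found mainly in males. For mir-202 95.3% of 851 counts came from male libraries, and the shares were 99.6% of 3408 counts for MI0005470, 99.4% of 2165 for MI0005501 and 99.4% of 2280 for MI0023705. At least 10 counts of any of them were found in 17 libraries, which were all labelled male (16 without Q140 male replicate 4). All 4 precursors were at 0 in 10 libraries, from 3 males and 7 females. In bulk tissue, fewer cells of a type and less RNA per cell cannot be told apart. Marker lists for testis, epithelial, fat, blood and muscle cells could not be matched to any accession, so the part of other tissue in these counts was not tested.

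A few male libraries held most of the counts. Q92 male replicate 2 alone held 38.8% of the mir-202 counts, 42.7% of MI0005470, 45.9% of MI0005501 and 59.3% of MI0023705. The 3 highest libraries held 75.3%, 75.7%, 75.6% and 85.0% of the counts, in the same order, and 4 to 7 libraries made up 90% of them. In RPKM, which divides each count by precursor length, Q92 male replicate 2 held 6417 for MI0023705, 4846 for MI0005470, 3142 for MI0005501 and 1175 for mir-202. In CPM, without that division, MI0005470 stood above MI0023705 there, at 469 against 436. The RPKM values were ranks 74, 87, 102 and 154 among the 573 precursors with a count in that library. Precursors near 0 in most libraries thus stood well above the middle of that library's list.

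**Figure D1:**
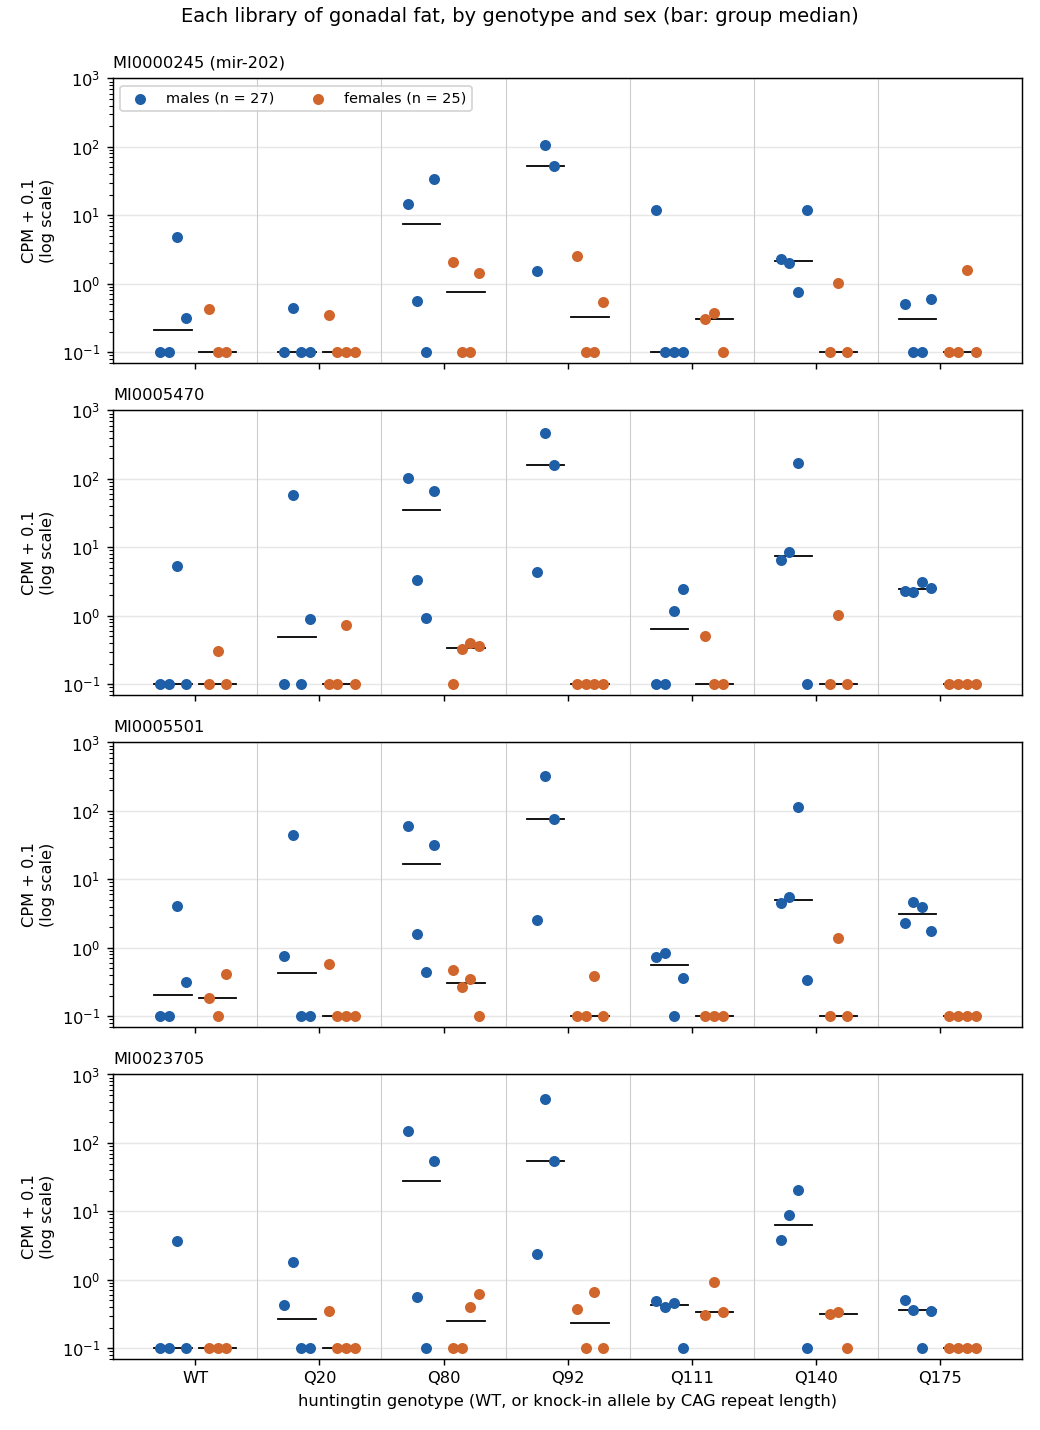
Level of each precursor in every library (CPM + 0.1, log axis) by genotype, with males left of females in each genotype and a bar at the group median. Female libraries lie at or below 2.46 CPM for every precursor, and for MI0005470 the highest values are in 2 Q92 males, 2 Q80 males, 1 Q140 male and 1 Q20 male.

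For mir-202 the males ran from 0 to 106 CPM with a median of 0.400 (n = 27), and the females from 0 to 2.46 CPM with a median of 0 (n = 25). At least 10 counts were present in 8 males (7 without Q140 male replicate 4) and no female. At least 1 count was present in 16 males and 10 females (15 and 9 without both Q140 libraries that stood apart). The sexes overlapped: 7 males lay above the highest female (6 without Q140 male replicate 4), and 11 males and 15 females were at 0.

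By male group, mir-202 was at 0, 0, 4.67 and 0.216 CPM in WT. It was at 0, 0.348, 0 and 0 CPM in Q20 and at 14.4, 0.456, 0 and 33.4 CPM in Q80. Each of these groups thus held at least 1 library at 0. The Q92 males held 1.42, 106 and 52.3 CPM, the Q111 males 12.0, 0, 0 and 0 CPM, the Q140 males 2.17, 1.88, 0.659 and 11.7 CPM, and the Q175 males 0.400, 0, 0 and 0.494 CPM. The 3 highest libraries were 2 Q92 males and 1 Q80 male, and each of these groups also held a male at 1.42 CPM or below. By lane, the male medians were 6.00 CPM in lane 1 (n = 12), 0.659 CPM in lane 3 (n = 7) and 0.108 CPM in lane 5 (n = 8); both high Q92 males were in lane 1, and so were Q20 male replicates 1 and 2, at 0 and 0.348 CPM.

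Of the 4 precursors, mir-202 was the one with most counts in females. The female total was 40 counts for mir-202, against 12 for MI0005470, 13.5 for MI0005501 and 14 for MI0023705. It held 9 counts in Q92 female replicate 1, 8 in Q80 female replicate 1, 7 in Q175 female replicate 3 and 5 in Q80 female replicate 4. In these 4 libraries MI0005470 had at most 1 count and MI0005501 at most 1.5, an estimated count. Without Q140 female replicate 2 the female total for mir-202 was 36 counts, and the highest value did not move.

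MI0005470 ran from 0 to 469 CPM in males with a median of 2.35 (n = 27), and from 0 to 0.934 CPM in females with a median of 0 (n = 25). It reached 3 counts in 18 males and 1 female, and 10 counts in 14 males and no female. That 1 female was Q140 female replicate 2; without it the female maximum was 0.639 CPM. It lay above every female in 17 of 27 males, and in 19 of 26 males without both Q140 libraries.

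The WT males held 0, 0, 5.30 and 0 CPM of MI0005470, the Q20 males 0, 58.5, 0 and 0.782 CPM, and the Q80 males 103, 3.19, 0.813 and 67.2 CPM. The Q92 males held 4.25, 469 and 158 CPM, the Q111 males 0, 0, 1.06 and 2.35 CPM, and the Q140 males 6.52, 8.35, 168 and 0 CPM. A single library stood far above its replicates in WT, Q20 and Q140. The Q175 males held 2.20, 2.13, 2.97 and 2.47 CPM, a narrow range in which no library was at 0. The Q175 females were all at 0, where a count of 0 allows up to 3 counts per library. Q175 and WT males overlapped, because WT male replicate 3 was higher than every Q175 male.

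MI0005501 ran from 0 to 319.9 CPM in males with a median of 1.68 (n = 27), and from 0 to 1.30 CPM in females with a median of 0 (n = 25). The highest female was again Q140 female replicate 2, and without it the female maximum was 0.474 CPM. By male group the values were 0, 0, 3.99 and 0.213 CPM in WT, 0.663, 43.8, 0 and 0 CPM in Q20, and 59.6, 1.50, 0.337 and 31.7 CPM in Q80. The high libraries were those of MI0005470. The Q92 males held 2.43, 319.9 and 76.8 CPM, the Q111 males 0.642, 0.751, 0 and 0.259 CPM, the Q140 males 4.34, 5.38, 114 and 0.243 CPM, and the Q175 males 2.23, 4.52, 3.81 and 1.68 CPM. Q111 males were low here in all 4 libraries.

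The counts of MI0005501 were not whole in 27 of its 30 libraries with a count, whereas those of the other 3 precursors were whole in every library. The precursor MI0005500, also 81 nucleotides long, had the same value in 29 of these 30 libraries and differed in Q175 male replicate 3 alone, by 16.6 counts. That was the whole MI0005501 count of this library, in which MI0005500 held none. Its MI0005501 value is thus not on the same footing as those of the other libraries. Whether reads were divided between both was not tested, and the values of MI0005501 are uncertain to that extent.

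MI0023705 ran from 0 to 436 CPM in males with a median of 0.355 (n = 27), and from 0 to 0.813 CPM in females with a median of 0 (n = 25). It reached 10 counts in 8 males and no female. By male group the values were 0, 0, 3.61 and 0 CPM in WT, 0.332, 1.74, 0 and 0 CPM in Q20, and 149.5, 0.456, 0 and 54.2 CPM in Q80. Unlike the previous pair of precursors, it was low in Q20 male replicate 2. The Q92 males held 2.27, 436 and 54.6 CPM, the Q111 males 0.388, 0.300, 0.355 and 0 CPM, the Q140 males 3.75, 8.88, 20.1 and 0 CPM, and the Q175 males 0.400, 0.266, 0 and 0.247 CPM. Counts in Q111 and Q175 males were 3 and 4 in all, at the level of single reads.

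The precursors shared libraries but not in fixed proportion. At least 10 counts of all 4 were present in 6 libraries. In 2 libraries, Q111 male replicate 1 and Q140 male replicate 4, there were at least 10 counts of mir-202 and under 3 of each other precursor. In 6 other libraries there were at least 10 counts of MI0005470 and under 3 of mir-202. The high libraries of mir-202 and of MI0005470 are therefore partly different ones.

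**Figure D2:**
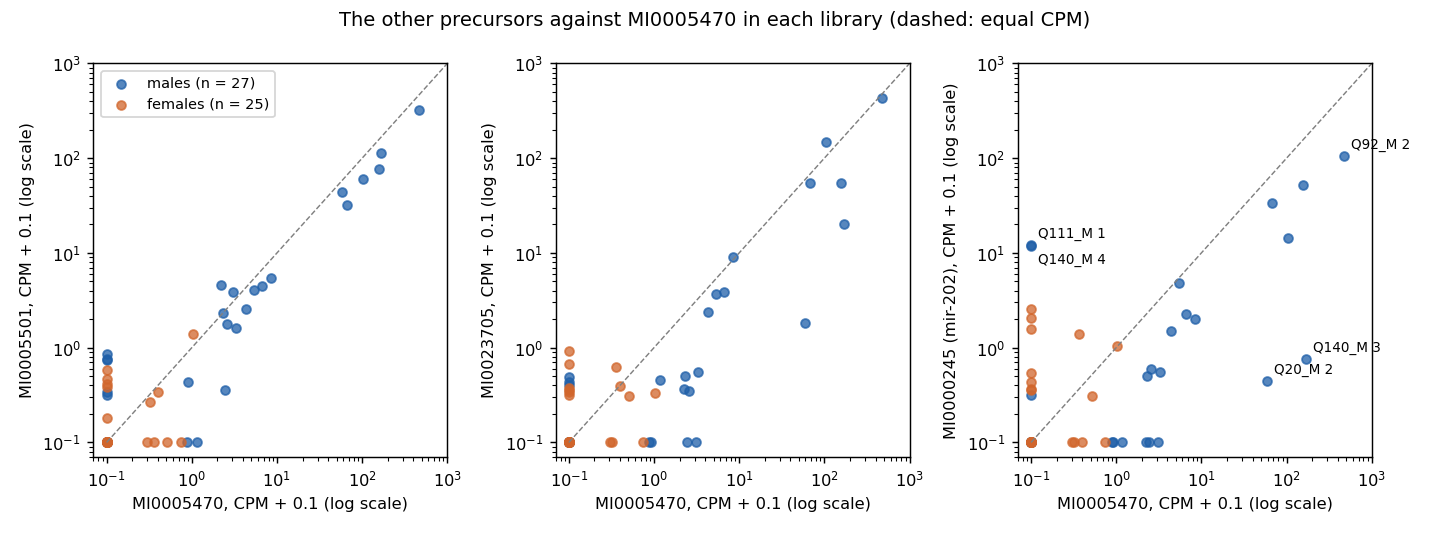
Each point is a library, with MI0005470 on the x axis and MI0005501, MI0023705 or mir-202 on the y axis (CPM + 0.1, log axes; the dashed line marks equal CPM). MI0005501 follows MI0005470 closely, while mir-202 is at 12.0 and 11.7 CPM in 2 libraries with no MI0005470 and at 0.659 and 0.348 CPM in 2 libraries with 168 and 58.5 CPM of it.

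In the 6 libraries with at least 100 counts of MI0005470, the count of MI0005501 was 0.472 to 0.749 times that of MI0005470, a span of 1.59-fold. The count of MI0023705 was 0.0298 times that of MI0005470 in Q20 male replicate 2 and 1.45 times in Q80 male replicate 1, a span of 48.7-fold. The count of mir-202 was 0.00391 times in Q140 male replicate 3 and 0.498 times in Q80 male replicate 4, a span of 127-fold. Where MI0005470 was high, the ratio of MI0005501 to it thus varied far less than those of the other precursors.

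Shares of the summed counts of the 4 precursors were compared between libraries for 1 precursor at a time, since counts are not corrected for length. The exact 95% binomial intervals cover counting error only. Among 17 libraries with at least 20 summed counts, mir-202 made up a median of 8%. It made up 98.0% in Q140 male replicate 4 (interval 89.1 to 99.9%, 49 counts) and 91.2% in Q111 male replicate 1 (76.3 to 98.1%, 34 counts). These intervals lie apart from those of the other 15 libraries. In Q80 male replicate 4 the share was 17.9% (15.0 to 21.2%, 602 counts), and in Q92 male replicates 2 and 3 it was 7.99% (7.18 to 8.86%) and 15.3% (13.4 to 17.4%). In Q140 male replicate 3 it was 0.218% (0.0264 to 0.784%, 919 counts), and in Q20 male replicate 2 it was 0.333% (0.00844 to 1.84%, 300 counts). Replicates 3 and 4 of the Q140 males thus lay far apart. The share of mir-202 was 0% in Q175 male replicates 2 and 3, on 26 and 30 counts, with upper bounds of 13.2% and 11.6%. Q140 male replicate 4 is the library that stood apart from the other males for MI0000553, and the part of this in its share was not tested.

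MI0023705 made up 45.8% in Q80 male replicate 1 (42.3 to 49.3%, 817 counts) and 32.7% in Q92 male replicate 2 (31.3 to 34.2%, 4131 counts). It made up 6.64% in Q140 male replicate 3 (5.11 to 8.45%) and 1.67% in Q20 male replicate 2 (0.543 to 3.85%). Q140 male replicate 3 and Q20 male replicate 2 thus had low shares of both mir-202 and MI0023705.

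**Figure D3:**
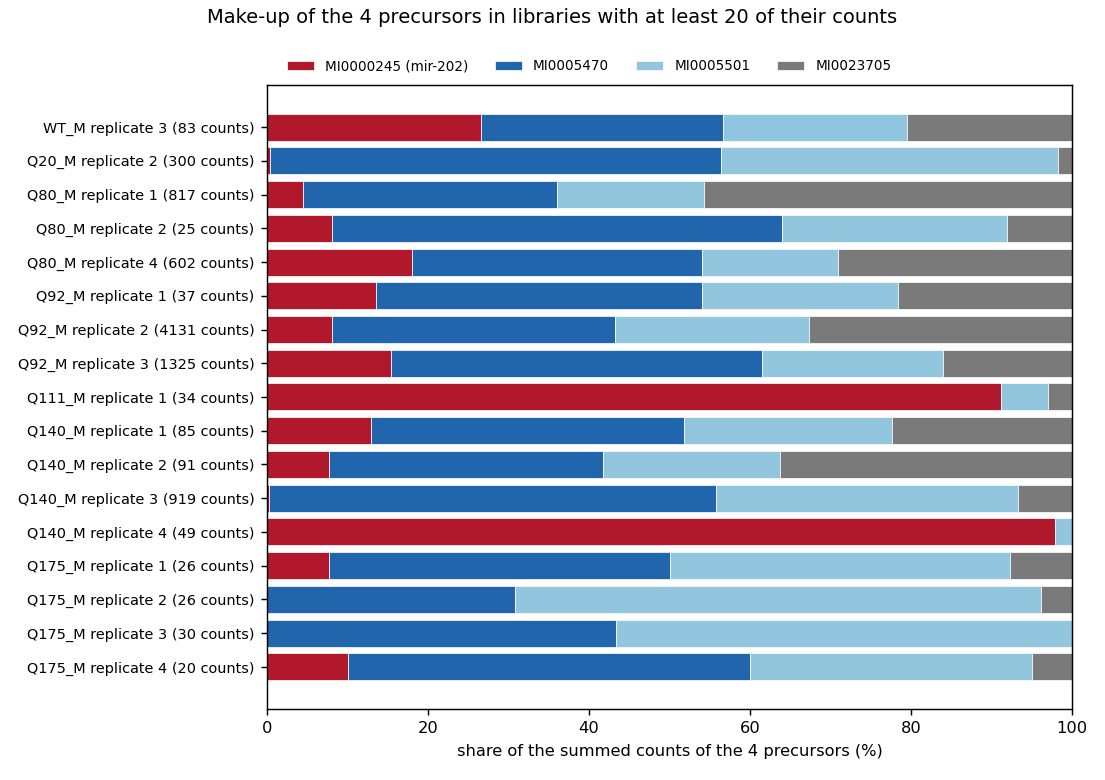
Make-up of the summed counts of the 4 precursors in each of the 17 libraries with at least 20 such counts (share in percent; the number of counts stands beside each library). mir-202 fills 98.0% and 91.2% of 2 libraries and under 1% of Q20 male replicate 2, Q140 male replicate 3 and Q175 male replicates 2 and 3.

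Over all 52 libraries, Pearson's r of log2(CPM + 1) was 0.979 between MI0005470 and MI0005501 (Spearman's rho 0.728). Between MI0005470 and MI0023705 it was 0.913 (rho 0.632), and between MI0005501 and MI0023705 0.905 (rho 0.681). Those of mir-202 were lower, at 0.813 with MI0023705 (rho 0.609), 0.695 with MI0005501 (rho 0.554) and 0.686 with MI0005470 (rho 0.448). Without Q92 male replicate 2 the r of mir-202 with MI0005470 was 0.587, and that of MI0005470 with MI0005501 was 0.973. The points share libraries and their depth, and many lie at 0 together, so these values describe the libraries and were not tested.

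The precursors most like each member were sought among 445 others that had at least 10 counts in a library, by Pearson's r of log2(CPM + 1) over the 52 libraries. For mir-202 the 2 highest were MI0002403 (0.850) and MI0023709 (0.827). For MI0005470 they were MI0005474 (0.985) and MI0005498 (0.981), for MI0005501 MI0005500 (0.988) and MI0005498 (0.982), and for MI0023705 MI0023737 (0.978) and MI0023736 (0.975). No precursor followed mir-202 as closely as the first precursor in each of the other 3 lists did. In all of these the highest library was Q92 male replicate 2, and without it the same 5 precursors led each list. Ranked by Spearman's rho, 1 of the 5 stayed in the list of mir-202 and 2 or 3 in the others.

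Genotypes were compared with edgeR's quasi-likelihood test on the whole table, with sex as a covariate and Benjamini-Hochberg adjustment at 0.05. A precursor was tested where at least 10 counts were present in at least 7 of the libraries fitted. In the 37 libraries of the lanes 1 and 3 series, mir-202 and MI0023705 met that filter with exactly 7 libraries each, and none of these were Q20. They could thus be tested only because of the groups in which they were high. The comparisons with Q20 share its 8 libraries and are set side by side without being counted as separate evidence.

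Against Q20, 2 of the 4 precursors passed in Q92, where 4.06% of all 345 precursors tested were called and 2.32% were called higher. These were mir-202 and MI0023705, both higher in Q92. All 4 precursors were chosen with these values known, so that count is not independent evidence. mir-202 had a lowest, median and highest value of 0, 1.42 and 106 CPM in Q92 (n = 7) and of 0, 0 and 0.348 CPM in Q20 (n = 8). The groups overlapped at 0, and 5 of 7 Q92 libraries lay above the highest Q20 library. The log2 fold change was 7.10 (SE 1.61, edgeR adjusted p = 0.0190; 0.00466 to 0.243 over 46 fits). Because Q20 held 2 counts in all, against 549 in Q92, the fitted value depends on the prior count. The ratio of the summed rates was 287, with an exact 95% interval of 79.2 to 2380 for counting error alone. It was 131 without Q92 male replicate 2, which held 330 of the 549 counts.

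MI0023705 had a lowest, median and highest value of 0, 0.571 and 436 CPM in Q92 (n = 7) and of 0, 0 and 1.74 CPM in Q20 (n = 8). The groups overlapped here too, and 3 of 7 Q92 libraries, the 3 males, lay above every Q20 library. The log2 fold change was 7.08 (SE 1.74, edgeR adjusted p = 0.0323; 0.00466 to 0.290 over 46 fits). DESeq2 called both as well (adjusted p = 0.00466 for each, 4.35% of all tested). Neither call held without Q92 male replicate 2 (mir-202 log2 6.22, edgeR adjusted p = 0.0639; MI0023705 log2 4.87, adjusted p = 0.125; 0% of all tested called), without Q20 male replicate 1, 3 or 4 (adjusted p from 0.0724 to 0.0908, 0.29% of all tested in each), in males alone (adjusted p = 0.185 for both, 0% of all tested) or with limma on log2(RPKM + 1) (adjusted p = 0.243 and 0.290, 0.58% of all tested). With the lane as a covariate both calls held (adjusted p = 0.0244 and 0.0351, 3.19% of all tested), as they did without both Q140 libraries named above (0.0123 and 0.0198, 1.45% of all tested). Q140 male replicate 4, with 48 counts, was among the 7 libraries by which mir-202 met the filter. Without it mir-202 would not have met the filter, and it was kept in that fit as in the main fit.

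MI0005470 and MI0005501 were at log2 3.03 (SE 1.46, edgeR adjusted p = 0.270) and 2.86 (SE 1.32, adjusted p = 0.243) in Q92 against Q20. These did not pass. Their values moved with single libraries of either group. Q20 male replicate 2 was the single Q20 library that held both, at 58.5 and 43.8 CPM. Without it they were at log2 7.48 (adjusted p = 0.0287) and 6.91 (adjusted p = 0.0237), and all 4 precursors were called, as were 7.54% of all tested. Without Q92 male replicate 2 their edgeR adjusted p was 0.652 and 0.691, and 0% of all tested were called.

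In Q80, edgeR called none of the 4 precursors against Q20 and 1.45% of all 345 tested. At an unadjusted p under 0.05 there were 2 of the 4, among 52 of the 345. DESeq2 and limma called none of the 4 either, and 1.45% and 2.61% of all tested. mir-202 was at 0, 0.884 and 33.4 CPM (lowest, median and highest, n = 8) and MI0023705 at 0, 0.377 and 149.5 CPM in Q80, against the Q20 values above. The log2 fold changes were 5.73 (SE 1.64) and 5.80 (SE 1.70), both with an edgeR adjusted p of 0.0677. Both passed with library totals in place of TMM, where 3.77% of all tested were called, and without Q80 male replicate 2, and 1 of them without Q20 female replicate 1 or Q92 male replicate 2. Neither passed in males alone (edgeR adjusted p = 0.393 and 0.294) or with the lane as a covariate (0.135 and 0.216), where 0% of all tested were called. Of 37 fits without a single library, 35 did not call mir-202 and 35 did not call MI0023705. MI0005470 and MI0005501 were at log2 1.41 (SE 1.43, adjusted p = 0.603) and 1.07 (SE 1.31, adjusted p = 0.674). Without Q20 male replicate 2 they were at log2 5.83 and 5.08 (adjusted p = 0.105 for both). Their lowest log2 values with a single library left out were 0.69 and 0.29.

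In Q140, edgeR called none of the 4 precursors against Q20 and 0.29% of all 345 tested, with 2 of the 4 at an unadjusted p under 0.05, among 65 of the 345, and none called by DESeq2 or limma, which called 4.93% and 1.16% of all tested. The lowest, median and highest values in Q140 (n = 7) were 0, 0.934 and 11.7 CPM for mir-202 and 0, 0.233 and 20.1 CPM for MI0023705. The log2 fold changes were 4.18 (SE 1.71, edgeR adjusted p = 0.184) and 3.53 (SE 1.69, adjusted p = 0.257). Without both Q140 libraries that stood apart from their labelled sex, mir-202 was at log2 2.64 (adjusted p = 0.599) and MI0023705 at log2 3.95 (adjusted p = 0.439). The direction of MI0005470 (log2 1.55, SE 1.45, adjusted p = 0.615) and MI0005501 (log2 1.57, SE 1.33, adjusted p = 0.591) rested on Q140 male replicate 3, without which they were at log2 -0.84 and -0.49. Without Q20 male replicate 2 they were at log2 5.97 and 5.57 (adjusted p = 0.0796 and 0.0745). With the lane as a covariate all 4 precursors were at an unadjusted edgeR p under 0.05, among 72 of the 345. None of the 4 was called, and 0.29% of all tested were. In that fit mir-202 was at log2 4.75 and MI0023705 at log2 5.49 (edgeR adjusted p = 0.154 for both). MI0005470 was at log2 3.62 (adjusted p = 0.209) and MI0005501 at log2 3.71 (adjusted p = 0.154).

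In Q111, edgeR called none of the 4 precursors against Q20 and 0% of all 345 tested. An unadjusted p under 0.05 was found for 56 precursors, 2 of the 4 among them. DESeq2 called 0 of the 345 and limma 2 (0.58%), neither of them one of the 4. mir-202 was at log2 3.64 (SE 1.75, edgeR adjusted p = 0.299), and 31 of its 33 Q111 counts lay in Q111 male replicate 1, without which it was at 0.49. MI0005470 held 11 counts in 7 Q111 libraries, against 172 in 8 Q20 libraries, and 168 of those in Q20 lay in Q20 male replicate 2. Its log2 fold change was -3.65 (SE 1.87, adjusted p = 0.340), and 0.78 without that library. MI0005501 was at log2 -4.53 (SE 1.78, adjusted p = 0.267), and at -0.47 without the same library. The Q111 libraries were all in lane 1, whereas those of Q20 were in lanes 1 and 3. With the lane as a covariate mir-202 was at log2 2.56 (edgeR adjusted p = 0.884) and MI0005470 at -4.08 (adjusted p = 0.743). MI0005501 was at -4.98 in that fit (adjusted p = 0.504), and 0% of all tested were called. MI0023705 was at log2 0.84 (SE 2.16, adjusted p = 0.940), and its direction turned in males alone (-0.87), with the lane as a covariate (-0.14) and without Q111 female replicate 2 (-0.32).

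**Figure D4:**
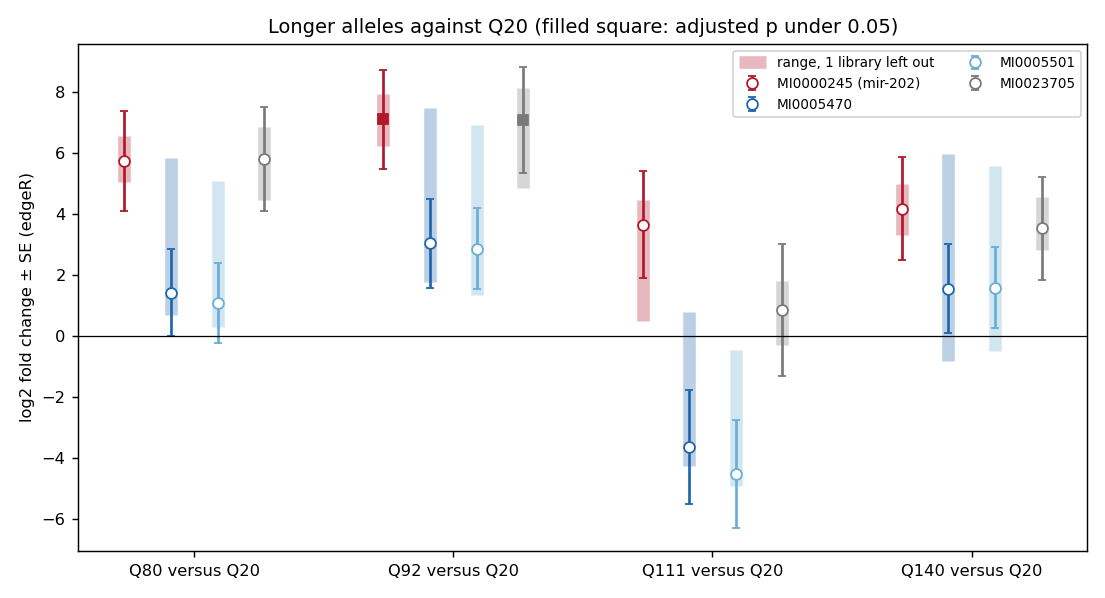
log2 fold change against Q20 of each precursor in Q80, Q92, Q111 and Q140 (edgeR). Error bars are a standard error derived from the F statistic, and filled squares have an adjusted p under 0.05. The shaded bar is the range when 1 library is left out. mir-202 and MI0023705 lie highest, at 7.10 and 7.08 in Q92, and the bars of MI0005470 and MI0005501 are the longest.

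In Q175 against WT, none of the 4 precursors reached 10 counts in 7 of the 15 libraries, so none was tested; 4.55% of the 308 precursors tested were called. MI0005470 had a lowest, median and highest value of 0, 1.06 and 2.97 CPM in Q175 (n = 8) and of 0, 0 and 5.30 CPM in WT (n = 7). The groups overlapped. With the filter lowered to 10 counts in 3 libraries, MI0005470 was at log2 0.73 (SE 0.89, edgeR adjusted p = 0.675) and MI0005501 at log2 1.21 (SE 0.85, adjusted p = 0.429). No Q175 library held 10 counts of mir-202 or MI0023705, whereas WT male replicate 3 held 22 and 17. That library was the highest of the WT libraries for all 4 precursors, with 25 counts of MI0005470 and 18.8 of MI0005501.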

How the data were processed

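Estimated counts and RPKM values of 1187 precursors in 52 libraries were deposited by the authors as separate tables. Per the submitters' processing notes, CASAVA 1.8.2 was used, in a role that is not stated. Aligner, genome build, miRBase release, counting program and use of strand: not given in the sources used here. Of the estimated counts, 89.1% were whole within 0.0001, and all were rounded for the count tests, which had been designed for whole numbers. Columns were matched to samples by the library identifier in the labels. Lengths were recovered from the ratio of counts to RPKM.

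The members, marker lists and tests were chosen with earlier results of these data known. The precursors named are the 4 members and, by likeness to each, the first 2 of the 5 that the rule takes. Sequences are from RefSeq (GRCm38.p6) and gene context from GENCODE vM21. Marker lists and genomic neighbours were matched to 0 precursors.

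Differences were tested with edgeR 4.0.16 in R 4.3.3 (robust quasi-likelihood F test, TMM scaling, sex as a covariate, Benjamini-Hochberg over all precursors tested, at least 10 counts in at least 7 libraries). Q175 was compared with WT in 15 libraries, and Q80, Q92, Q111 and Q140 with Q20 in 37 libraries that share 1 estimate of the spread. This edgeR test returns no standard error. The SE given is the absolute log2 fold change divided by the square root of the F statistic. The script was tested on simulated data. Alternatives were DESeq2 1.42.0, no filter, 10 counts in 3 libraries, limma 3.58.1 on log2(RPKM + 1), library totals, males or females alone, the lane as a covariate, a replicate block, omission of both Q140 libraries that stood apart from their labelled sex and omission of single libraries. Fits that leave out libraries tested the same precursors, also where a precursor no longer met the filter in the libraries left. Exact intervals are Clopper-Pearson at 95% and cover counting error only, since reads without molecular identifiers are not independent molecules.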

Additional observations from a re-analysis of the deposited data

Results flagged for a closer look

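In groups of 4 libraries, a single library stood far above its replicates in 17 of the 36 cases in which the 4 values differed. Chance gives such a gap in about 1 in 20 groups of normally spread values. Most other values in these groups were 0, and a group with 3 libraries at 0 gives such a gap by itself.

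For mir-202 the libraries that stood apart were Q111 male replicate 1 at 12.0 CPM (31 counts), Q140 male replicate 4 at 11.7 CPM (48 counts), WT male replicate 3 at 4.67 CPM (22 counts) and Q175 female replicate 3 at 1.46 CPM (7 counts). Q20 male replicate 2 at 0.348 CPM and Q20 female replicate 1 at 0.253 CPM held 1 count each.

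For MI0005470 they were Q140 male replicate 3 at 168 CPM (511 counts), Q20 male replicate 2 at 58.5 CPM (168 counts), WT male replicate 3 at 5.30 CPM (25 counts) and Q20 female replicate 3 at 0.639 CPM (2 counts). The same 3 males stood apart for MI0005501, at 114, 43.8 and 3.99 CPM, along with Q20 female replicate 1 at 0.474 CPM and Q92 female replicate 3 at 0.285 CPM, both under 2 counts. For MI0023705 they were WT male replicate 3 at 3.61 CPM (17 counts) and Q20 female replicate 1 at 0.253 CPM (1 count). WT male replicate 3 stood apart for all 4 precursors, and Q140 male replicate 3 and Q20 male replicate 2 for MI0005470 and MI0005501.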

How the results depend on the processing

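In Q92 against Q20, 2 of the 4 precursors were called. With limma on log2(RPKM + 1) 0 were called, in males alone 0 and with the replicate block 1 (0.58%, 0% and 0.87% of all tested). The other 6 alternatives gave 2, with 1.45% to 8.81% of all tested called. Leaving out single libraries gave 0 to 4, with 0 without Q20 male replicate 1, 3 or 4 (0.29% of all tested in each) or Q92 male replicate 2 (0%), and 4 without Q20 male replicate 2 (7.54%). In Q80, where none was called, library totals gave 2 (3.77%), and leaving out single libraries gave 0 to 2, with 1.74% to 4.06% of all tested called where a member was. In Q111 and Q140 the count was 0 in 37 fits without a library and in the other 9 alternatives, and in Q175 it was 0 in both alternatives with a value. For mir-202 in Q140, DESeq2 gave no adjusted p. None of the 4 precursors could be tested in females alone. The direction turned in Q111 for MI0005470 (log2 -4.28 to 0.78 without single libraries) and MI0023705 (-0.87 in males alone, -0.14 with the lane, -0.32 to 1.79 without single libraries), and in Q140 for MI0005470 (-0.84 to 5.97) and MI0005501 (-0.49 to 5.57). Library totals moved the median of all precursors to log2 0.20 in Q80, 0.11 in Q92, 0.10 in Q111 and 0.16 in Q140. The cause of these changes was not tested.

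Replicate numbers did not pair libraries: the mean correlation of same-numbered libraries was -0.05 in the lanes 1 and 3 series and -0.01 in lane 5. With the replicate block, mir-202 was at log2 7.91 (edgeR adjusted p = 0.0318) and MI0023705 at 6.65 (adjusted p = 0.0949) in Q92 against Q20. Depth limits values under 3 counts. Counting libraries from 3 counts in place of 1 left 10 males and 5 females for mir-202. Without both Q140 libraries that stood apart, 9 males and 4 females were left for it. For MI0023705, 10 males and 1 female were left.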
